A study of Homo sapiens with 2 samples.

Results

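The H3K27ac peaks at the replication-dependent histone genes of LOUCY were examined, LOUCY being an established human line of T-cell acute lymphoblastic leukaemia (T-ALL). H3K27ac is acetylation of histone H3 at lysine 27, a mark of active promoters and enhancers. The series held 1 ChIP library against this mark and 1 library of input DNA, both from untreated cells of that line, so no value has a replicate and no difference was tested. The members were all peaks overlapping by 1 bp or more any of 3 windows of hg19. These were positions 26010000 to 26290000 of chromosome 6 (the main HIST1 window, 280 kb), 27770000 to 27870000 of chromosome 6 (the distal HIST1 window, 100 kb) and 149780000 to 149870000 of chromosome 1 (the HIST2 window, 90 kb). They numbered 27 of 52203 peaks, with 18, 5 and 4 in the 3 windows. They were compared with the 37 peaks of the parts between the HIST1 clusters. These were 26350000 to 27050000 (called the butyrophilin window, 25 peaks) and 27200000 to 27750000 of chromosome 6 (12 peaks). After removal of duplicates by MACS2, 54357332 of 62626946 ChIP tags and 71932640 of 74212738 input tags were left. The fold of a peak is the authors' enrichment over the local input level, 1 value per peak. Markers of the T-cell line were not examined, since few gene positions in hg19 were at hand.

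Replication-dependent histone genes encode the core histones H2A, H2B, H3 and H4 and the linker histone H1, which package DNA into nucleosomes. They are transcribed mainly in S phase, when new DNA needs new histones, carry no introns and end their transcripts in a stem-loop in place of a poly(A) tail. Many near-identical copies lie side by side, and in the nucleus the clusters gather in the histone locus body, where the coactivator NPAT and the H4 promoter factor HINFP act. Butyrophilins, whose genes give the larger comparison window its name, are cell-surface proteins of the immunoglobulin superfamily that take part in the recognition of cells by gamma-delta T cells. No hg19 position of a butyrophilin gene was at hand, so which peaks of that window lie at these genes was not examined.

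In the RefSeq gene order of GRCh38.p14, the histone genes of the main HIST1 run (H1-1 to H4C8) numbered 32, with 5 H1, 4 H2A, 8 H2B, 7 H3 and 8 H4 genes. The distal run (H2BC13 to H2BC17) held 16 genes and the HIST2 run (H2BC18 to H2AC21) held 11. Together the 3 runs had 59 genes, and hg19 positions were at hand for 3 of them, all H4 genes. Each of the 3 started in one of the strong peaks, which are described further on. The promoters of 2 of these genes, H4C2 (HIST1H4B) and H4C8 (HIST1H4H), are shown here. No promoter sequence was at hand for the other, H4C3 (HIST1H4C). The promoters of the linker histone gene H1-1 and of the H2B gene H2BC4 are shown beside them because each holds the element of its own family. Each sequence is the 250 bases before the RefSeq start, on the gene's strand (minus for all 4), with GRCh38.p14 coordinates that must not be set against the hg19 positions of the peaks. Capitals mark TATAA (the TATA element) and CCAAT on either strand, and also GGTCCG (part of an H4-specific element) in the H4 genes, ATTTGCAT (the octamer bound by POU factors) in H2BC4 and AAACACA (the H1 AC element) in H1-1, on either strand.
H4C2, chr6:26027284-26027533: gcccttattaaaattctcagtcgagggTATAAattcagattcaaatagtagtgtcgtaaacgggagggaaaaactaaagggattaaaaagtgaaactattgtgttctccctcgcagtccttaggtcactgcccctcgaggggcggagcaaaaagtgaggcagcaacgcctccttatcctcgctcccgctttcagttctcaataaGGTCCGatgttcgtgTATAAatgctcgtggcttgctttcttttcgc
H4C8, chr6:26285535-26285784: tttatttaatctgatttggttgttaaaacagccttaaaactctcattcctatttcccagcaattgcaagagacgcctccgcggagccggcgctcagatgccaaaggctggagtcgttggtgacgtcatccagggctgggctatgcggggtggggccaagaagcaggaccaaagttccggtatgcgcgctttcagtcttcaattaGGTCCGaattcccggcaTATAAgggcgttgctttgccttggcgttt
H1-1, chr6:26017788-26018037: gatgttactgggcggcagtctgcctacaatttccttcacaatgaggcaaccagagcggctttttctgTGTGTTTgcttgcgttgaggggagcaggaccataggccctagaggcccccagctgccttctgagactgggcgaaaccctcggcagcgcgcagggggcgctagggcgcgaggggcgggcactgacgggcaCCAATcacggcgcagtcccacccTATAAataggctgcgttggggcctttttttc
H2BC4, chr6:26123927-26124176: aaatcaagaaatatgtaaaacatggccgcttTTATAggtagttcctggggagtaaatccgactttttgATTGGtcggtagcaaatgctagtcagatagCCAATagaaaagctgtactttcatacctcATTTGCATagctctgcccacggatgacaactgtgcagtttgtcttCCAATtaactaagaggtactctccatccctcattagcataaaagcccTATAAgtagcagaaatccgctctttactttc

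Peaks covered most of both HIST1 windows and little of the 2 compared parts between them. In the main HIST1 window they covered 181 kb or 64.8%, and in the distal HIST1 window 70.1 kb or 70.1%. The HIST2 window was less filled, with 23.7 kb or 26.3%. The butyrophilin window had 53.8 kb or 7.68% covered, and the second part between the clusters 22.6 kb or 4.11%. The stretch left out between these 2 parts, 27050000 to 27200000, had 22.2% covered and held a peak of 24233 bp with a fold of 14.8. Over the 3 histone windows together the covered share was 58.5%, against 6.11% over both parts between, a ratio of 9.58. The parts between held stretches of 264 and 168 kb without a peak, and gene density was not compared. The ratio therefore sets windows side by side, not histone genes against other genes. The number of peaks differed less than the covered share, at 5.74 per 100 kb in the histone windows and 2.96 per 100 kb between them. The contrast therefore lay mainly in width. The median width was 6181 bp in the histone windows, 1521 bp between them and 1670 bp over all peaks.

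**Figure D1:**
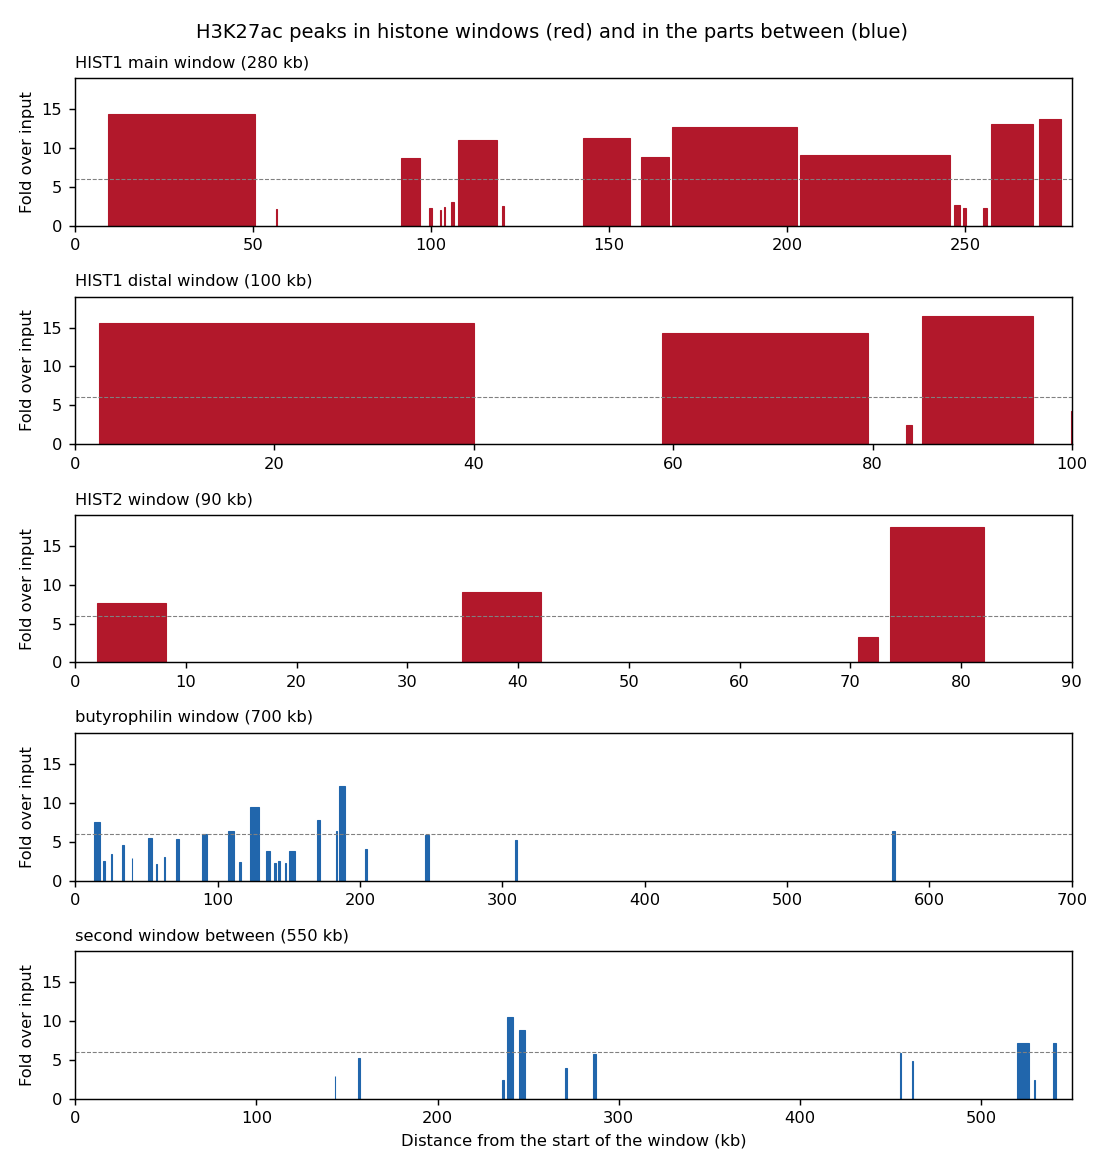
H3K27ac peaks in the 3 histone windows (red) and the 2 parts between (blue); each bar spans a peak, its height is the fold over input, the x axis is the distance from the start of the window in kb, and the dashed line marks a fold of 6. Wide peaks of high fold fill both HIST1 windows, while those in the blue windows are narrow and at most 12.2-fold.

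To place these values in the genome, all chromosomes with peaks were divided, up to their last peak, into consecutive windows of the same length as each window. Stretches where no tag can be placed were not left out, so the shares given here are not shares of mappable sequence. Of 10820 windows of 280 kb, 3 were covered at least as much as the main HIST1 window, on chromosomes 1, 3 and 6 and none of them touching a histone window. With the fold averaged over all bases of a window (0 outside peaks), the main HIST1 window reached 7.40, and 1 window of the genome was as high. Of 30313 windows of 100 kb, 37 (0.122%) were covered as much as the distal HIST1 window, 1 of which touched a histone window. That window had a fold averaged over its bases of 10.7, and 1 of the 30313 was as high. The HIST2 window stood lower, with 4.39% of windows of 90 kb covered as much and 1.60% as high in averaged fold. The butyrophilin window was matched in covered share by 23.9% and the second part by 40.0% of windows of their lengths. The borders of the histone windows were set at the clusters, whereas the genome windows lay on a fixed grid from the first base of each chromosome. Of the genome windows as high in averaged fold as either HIST1 window, 0 touched a histone window. The ranks therefore compare windows that were not placed alike. They describe 1 library and carry no test.

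**Figure D2:**
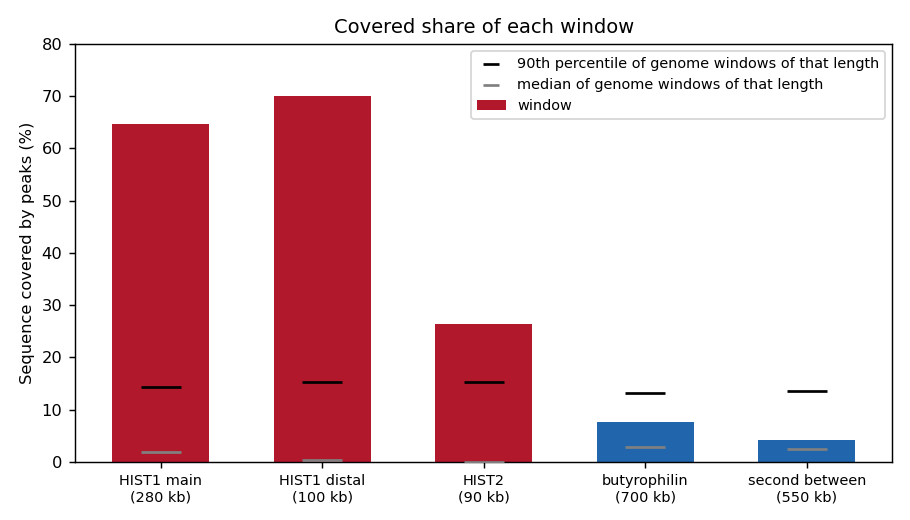
Share of each window covered by H3K27ac peaks in percent (bars; red, histone windows; blue, parts between), with the median (grey line) and the 90th percentile (black line) of all genome windows of the same length. Each histone window lies above its 90th percentile and each part between lies below it.

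The peaks of the histone windows were also stronger, at the upper end of the scale. A fold of at least 6 was found in 15 of 27 (55.6%, 95% Wilson interval 37.3 to 72.4, counting error only), against 23.2% of all peaks and 12 of 37 (32.4%, interval 19.6 to 48.5) between the clusters. These intervals take peaks as independent, although neighbouring members lay as close as 852 bp, and they measure no spread between libraries. A fold of at least 10 was found in 10 of 27 (37.0%), against 5.21% of all peaks and 2 of 37 (5.41%) between. At the lower threshold of 4 the order was turned, with 59.3% in the histone windows and 62.2% between them, against 37.4% of all peaks. The median fold was 8.80 in the histone windows, 5.16 between and 3.08 over all peaks. Weighted by width, the mean fold was 12.3, 6.38 and 6.36 in the same order. Peaks of 10000 bp or more numbered 9 of 27 in the histone windows and 0 of 37 between, against 4.37% of all peaks. Those 9 held 81.1% of the peak sequence at the histone genes, whereas peaks of that size held 25.6% of it over the genome.

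The 27 peaks fell into 2 classes with nothing in the middle. The 15 strong peaks had folds from 7.60 to 17.4 and widths from 5573 to 42096 bp (median 11188), and they made up 96.1% of the peak sequence. The 12 weak peaks had folds from 2.04 to 4.23 and widths from 242 to 1817 bp (median 801.5). No member had a fold from 4.5 to 7.5, a range that held 18.3% of all peaks and 15 of the 37 peaks between the clusters. This range was chosen after the values were seen, and with the windows widened by 20 kb it held 3 of 42 peaks. Each of the 12 weak peaks lay within 6 kb of a strong one, at 974 to 5929 bp (median 1847) from edge to edge. Between the clusters the 25 weaker peaks lay further off, at a median of 18647 bp from the nearest peak with a fold of at least 6. This distance depends on how much of a window the strong peaks fill, so it is no separate trait of the weak peaks. The strong peaks between the clusters were narrower too, with a median of 3377.5 bp and at most 6709 bp. Those of the whole genome had a median of 4089 bp.

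**Figure D3:**
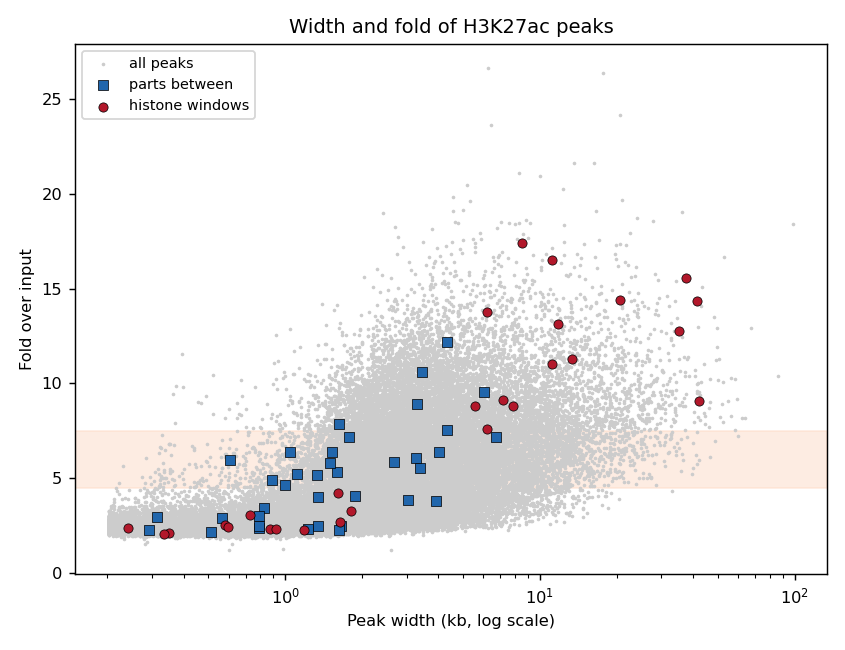
Width (kb, log scale) against fold over input for all peaks (grey), the 27 peaks of the histone windows (red circles) and the 37 peaks between them (blue squares); the shaded band spans folds of 4.5 to 7.5. No red circle lies in the band, and 15 lie above it.

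In the main HIST1 window the peaks formed 3 blocks. The first was a single peak at 26019217 to 26060534, of 41318 bp with a fold of 14.4 and a -log10 p of 113, rank 49 by width and 250 by fold among all peaks. A single weak peak of 351 bp followed it. After that came the longest stretch without a peak in any of the 3 windows, 34.6 kb from 26066815 to 26101440. In the RefSeq order HFE, a regulator of iron uptake that is no histone gene, stands between H1-2 and H4C3, but its hg19 position was not examined.

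The second block of the main window was more broken, with 7 peaks from 26101441 to 26130418. It had 2 strong peaks, one of 5573 bp with a fold of 8.80 and one of 11130 bp (26117507 to 26128636) with a fold of 11.03. The other 5 had folds from 2.04 to 3.07 and widths of 242 to 875 bp. A second stretch without a peak, of 22.2 kb, separated this block from the next.

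The third block ran from 26152600 to 26287010, and its 9 peaks covered 89.4% of 134 kb. It opened with peaks of 13342 bp (fold 11.3) and 7875 bp (fold 8.80). Next to them lay a pair of very wide peaks only 852 bp apart, one from 26177651 to 26212790 of 35140 bp with a fold of 12.8, the other from 26213643 to 26255738 of 42096 bp with a fold of 9.06. The second of the pair was the widest member, rank 41 by width, though only rank 4172 by fold. After 3 weak peaks the block closed with one of 11783 bp from 26267199 to 26278981 (fold 13.1), then one of 6181 bp from 26280830 to 26287010, whose fold was 13.8. When peaks were joined within 12.5 kb, the block extended past the window to 26342966 and ranked 6 of 25510 regions of the genome by the sum of fold times width. Joined within 5 kb it ranked 2 of 35140, and within 3 kb its first 108 kb ranked 4 of 39996.

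The distal HIST1 window held fewer but higher peaks, with 3 of its 5 at a fold of at least 14. The peak at 27772428 to 27810019 (37592 bp) had a fold of 15.6, rank 133 by fold and 64 by width. That at 27828899 to 27849585 (20687 bp) had a fold of 14.4, and that at 27854960 to 27866147 (11188 bp) had 16.5 with a -log10 p of 131. The longest stretch without a peak was 18.9 kb, between the first and the second of these. The other members were weak, 596 bp with a fold of 2.44 and a peak of 1609 bp with a fold of 4.23 that reached only 62 bp into the window. Of the 5 member peaks that were 20000 bp or wider, this window had 2 and the main window 3, against 0.988% of all peaks of that size.

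The HIST2 window differed in shape from the HIST1 windows, although it held the strongest member. The peak at 149853545 to 149862050 of chromosome 1 (8506 bp) had a fold of 17.4, rank 48 of all peaks, and a -log10 p of 127. The first strong peak of the window, from 149781970 to 149788197, had a width of 6228 bp and a fold of 7.60. The next, from 149814896 to 149822040, had 7145 bp and 9.12. A weak peak of 1817 bp (fold 3.24) lay beside the strongest. No peak of this window reached 10000 bp, and stretches of 26.7 and 28.6 kb without a peak lay on either side of the middle one.

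Copies of histone genes with the same sequence can hide signal, since a tag that matches several places equally cannot be assigned to one. Tags were 84 bp long. Among 409 pairs of promoters within a histone family, 6 shared an identical run of at least that length, on the gene strand. Of these, 3 pairs were in the HIST2 run. H4C14 and H4C15 were identical over all 300 bases, H2AC18 and H2AC19 shared a run of 299 and H3C14 and H3C15 one of 296. The distal HIST1 run held the other 3 pairs, with shared runs of 126 bases (H4C11 and H4C12), 93 (H2AC13 and H2AC14) and 93 (H2BC13 and H2BC14). The main run held none. The labels and file headers do not say how tags with several matches were treated, and the part of these repeats in the empty stretches was not tested.

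At the H4 genes with known hg19 positions, the start site lay in a strong peak in 3 of 3. Of 289 protein-coding genes in the same sample of annotated genes, 44.3% had their start in a peak with a fold of at least 6. Where a start lay in any peak, the median fold over the sample was 7.44 and the median width 3107 bp. HIST1H4B (26027124 to 26027480, minus strand) started inside the 41318 bp peak of the first block, 8.26 kb from one edge and 33.1 kb from the other. Other histone genes of the main run were mostly not placed in hg19, and peaks were called in broad mode. The width of this peak therefore cannot be assigned to HIST1H4B alone. HIST1H4C (26104176 to 26104565, plus strand) lay near the middle of the peak of 5573 bp, with a fold of 8.80, and its start was 2.74 kb from the upstream edge. HIST1H4H (26285354 to 26285727, minus strand) started 1.28 kb inside the edge of the last peak of the third block, with a fold of 13.8. These genes encode the same core histone H4, and their peaks ranked 250, 4730 and 359 by fold. HINFP itself, the factor that binds H4 promoters, was also in the sample. Its start at 118992290 of chromosome 11 lay in a peak of 2524 bp with a fold of 7.02, rank 9101. Positions of the other factors of histone gene expression, NPAT and SLBP among them, were not used here.

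**Figure D4:**
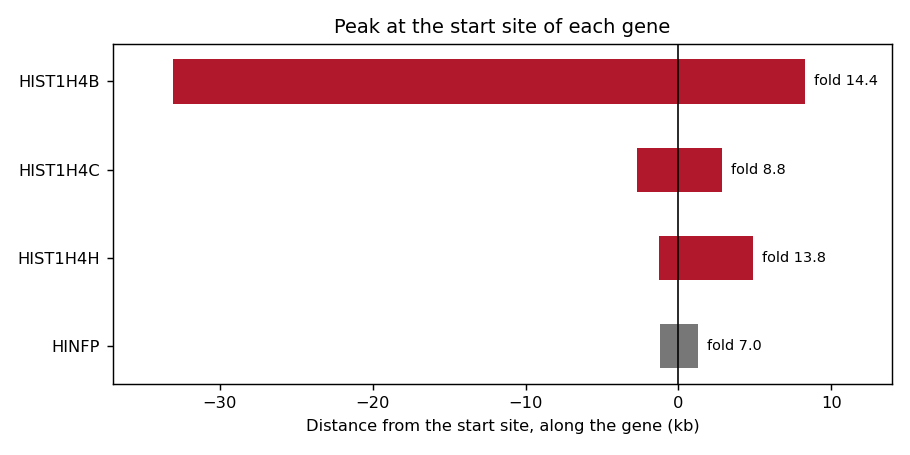
Extent of the H3K27ac peak at the start site (vertical line at 0) of 3 H4 genes (red) and of HINFP (grey), in kb along the direction of the gene, with the fold of the peak. Each start lies inside its peak, and the peak at HIST1H4B extends 33.1 kb upstream, where neighbouring histone genes were not placed.

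In sequence, the promoters of the histone genes shared a core and differed by family. Of the 68 listed genes on chromosomes 6 and 1, including 9 outside the 3 runs, 63 had a promoter of 300 bases (250 before and 50 after the start) in the RefSeq table. TATAA on either strand was found in 58 of 63 (92.1%), against 21.1% of 27305 promoters of all genes, and its longer form TATAAA, which TATAA contains, in 65.1% against 12.0%. In 47 of 63 (74.6%) TATAA on the gene strand began between -40 and -20 of the start, against 4.22% of all promoters, and the median position of the match nearest the start was -31. CCAAT was found in 85.7% against 35.7%, and both elements together in 81.0% against 8.56%. CCAAT without TATAA was found in 4.76% against 27.1%. GGGCGG, the GC box, split the families. It was found in 1 of 16 H2A, 1 of 18 H2B and 4 of 11 H3 promoters but in 4 of 6 H1 and 7 of 12 H4 promoters. All promoters held it in 44.6% and the 15843 promoters of protein-coding genes in 58.5%, close to the H4 share of 58.3%. For TATAA and CCAAT on either strand, the shares over protein-coding genes were 16.7% and 36.4%.

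Within the families, CCAAT was found in each H1, H2A, H2B and H3 promoter of the table but in 3 of 12 H4 promoters. GGTCCG was found in 11 of 12 H4 promoters, some of which also held CCAAT. It was found in 11.2% of all promoters, 14.5% of those of protein-coding genes and 1 of 18 H2B promoters. H4C2 and H4C8 each have 1 match of it, upstream of the TATA element nearest the start, in the sequences above, and neither has a CCAAT in those 250 bases. The octamer ATTTGCAT was found in 14 of 18 H2B and 11 of 16 H2A promoters, in 0 of 12 H4 promoters and in 1.80% of all promoters. On the gene strand alone it was found in 13 of 18 H2B promoters but in 1 of 16 H2A promoters, against 0.868% of all promoters. The H1 element AAACACA was found in 6 of 6 H1 promoters and 5.76% of all promoters, and also in 3 of 4 butyrophilin promoters of the table, 3 of which held CCAAT as well. On the gene strand alone AAACACA was found in 5 of 6 H1 promoters, against 2.99% of all promoters. In the H1-1 sequence above its match is on the other strand. The 5 promoters with no TATAA on either strand were those of H1-2, H4C14, H4C15, H2AC25 and H2BC26. H2A and H2B genes often share 1 promoter. Of 34 H2A and H2B promoters, 22 (64.7%) belonged to a pair of opposite direction whose windows overlap, against 14.9% of all promoters with such a neighbour, so their motif counts are not independent. A match is a description of the sequence and not a binding site.

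**Figure D5:**
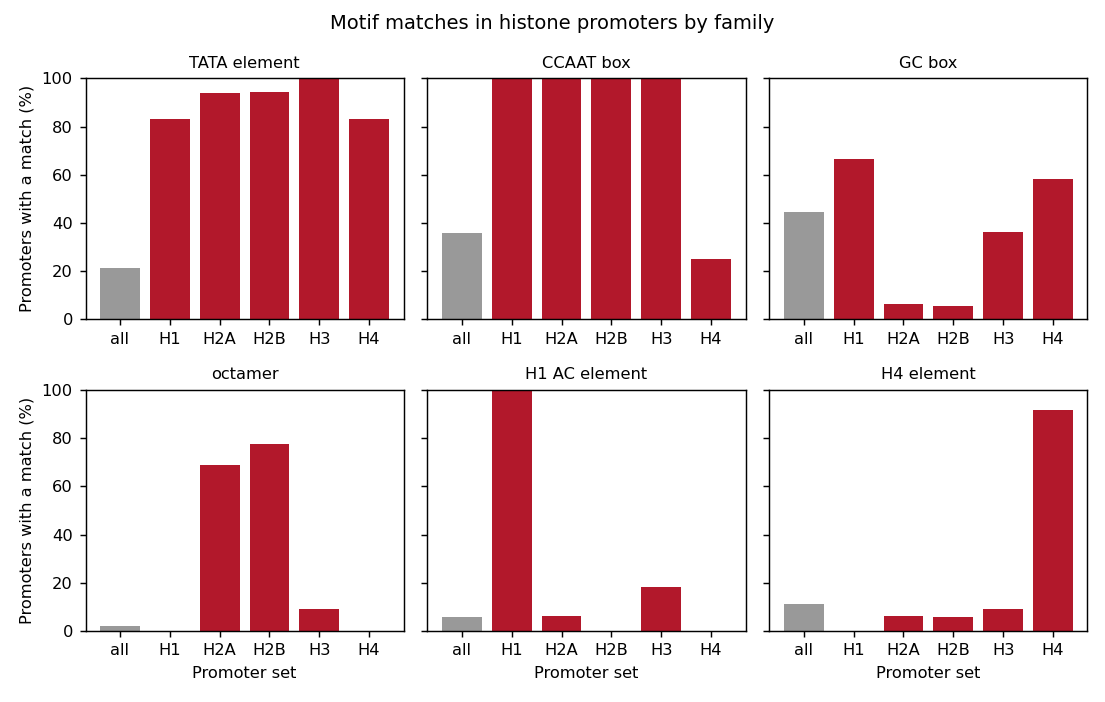
Percent of promoters with a match on either strand within 300 bases, for 27305 promoters of all genes (grey) and for the H1, H2A, H2B, H3 and H4 genes of the replication-dependent set (red), 1 panel per element. TATA elements are frequent in each family, the octamer in H2A (mostly on the other strand) and H2B, the AC element in H1 and the H4 element in H4.

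The compared parts between the HIST1 clusters had their own, smaller peaks. In the butyrophilin window the strongest was that at 26535337 to 26539667 (4331 bp, fold 12.2) and the widest that at 26472820 to 26478872 (6053 bp, fold 9.53). Its longest stretch without a peak was 264 kb, from 26660422 to 26923971. In the second part the strongest peak was that at 27438278 to 27441738 (3461 bp, fold 10.6) and the widest that at 27719805 to 27726513 (6709 bp, fold 7.19). The longest stretch without a peak was 168 kb there. The longest gap within the histone windows was 34.6 kb.

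Just outside the main window the nearest peaks had folds of 2.58 and 2.39, and before the distal window 2.76, while the next after it lay 177332 bp away. On chromosome 1 the window ended 837 bp before a peak of 1975 bp with a fold of 12.9, which was therefore not counted, and the last peak before the window had a fold of 6.78.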

How the data were processed

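Per the file headers, the authors called peaks with MACS2 2.1.0.20140616 in broad mode, ChIP against input, keeping 1 tag per position, with a q cutoff of 0.05. Keeping 1 tag per position limits the height of the strongest peaks. Bowtie2 and hg19 are named in the submitters' processing notes. Bowtie2's version is not given. Fold over local input, a ratio, was used as deposited, as were the -log10 p-value and -log10 q-value of each peak. The deposited pileup was below 0 in every row and was not used. Members and lists were chosen with earlier results of these data known.

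A peak belonged to a window at 1 bp of overlap, and covered sequence was clipped to the window. Named were the 10 members of highest fold, the 5 widest, the strongest, widest and longest gap of each window, and genes with hg19 positions; the other peaks given coordinates or values were chosen after their values were seen. Gene positions came from the sample of UCSC RefSeq genes in pyranges 0.1.4 (382 genes used), whose build was read as hg19 from its 7 alternate haplotype names. RefSeq tables of GRCh38.p14 gave gene order and promoters, the first listed start of each gene. The octamer, AC and H4 elements were added after the files were seen. A protein comparison in the design was not run. Interval code was tested on simulated data. Python 3.11.15, numpy 2.4.6, pandas 2.3.3 and scipy 1.17.1 were used.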

Additional observations from a re-analysis of the deposited data

How the results depend on the processing

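Values count as unmoved here within 1.5 times of the reported one, or for shares of peaks within the 95% Wilson interval, used only as a yardstick. By that measure 57 of 76 alternatives left the value unmoved. Some alternatives could not move it or repeated others. The H4 starts all lay inside peaks, the midpoint and whole-peak rules gave the same values, and density is the count per length. The tally is therefore no measure of robustness. The covered share and the median fold stayed unmoved in the histone windows and between them under each alternative run. The ratio of covered shares ran from 8.46 (histone windows widened by 20 kb) to 12.5. The median fold of the histone windows only just did so when these were widened by 20 kb. It was then 5.87, against 8.80 as reported and 5.16 between the clusters. Counts depended on the weak peaks. The 27 members became 17 at a -log10 q minimum of 5 (3.62 per 100 kb), 16 at 10 or more and 16 at a fold of at least 4 (both 3.40), 15 with peaks merged within 2 kb (3.19) and 42 with windows widened by 20 kb. Between the clusters the density became 1.68 per 100 kb at the -log10 q minimum of 10 and 1.84 at the fold minimum of 4. The share at a fold of at least 6 in the histone windows was 37.0% with a threshold of 10 and 96.1% by sequence; between them it was 62.2% with a threshold of 4, 5.41% with 10 and 54.2% by sequence. The longest joined region shrank from 190 to 108 kb with joining within 3000 bp. On the gene strand alone the octamer was found in 14 in place of 26 histone promoters (1 in place of 11 in H2A) and AAACACA in 5 in place of 9. The fold range of 4.5 to 7.5 and the added elements were chosen after seeing the data. No paired analysis was possible because each group had a single library. With 1 library pair, no value has a replicate check, and depth in repeated sequence is unknown.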

Other observations

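In the RefSeq order a smaller run of 5 histone genes (H2BC11 to H2AC12) stands between the main and the distal HIST1 run. The stretch of chromosome 6 left out between the compared parts, from 27050000 to 27200000 in hg19, held 5 peaks. The widest spanned 24233 bp (27093765 to 27117997) and had a fold of 14.8, ranking 195 by fold and 300 by width among all peaks. A second, from 27152816 to 27157475, had a fold of 11.2. Peaks covered 22.2% of this stretch. Whether these peaks lie at the 5 genes was not examined, since their hg19 positions were not at hand.

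Directly after the main HIST1 window, from 26290000 to 26350000, the pattern changed to many small peaks. There were 7 of them, or 11.7 per 100 kb, with widths of 322 to 2725 bp and folds of 2.23 to 5.31, and they covered 11.5% of the stretch.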
